A study of Homo sapiens with 12 samples.

Results

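The NDRG family comprises 4 human genes, NDRG1, NDRG2, NDRG3 and NDRG4, named after N-myc downstream regulated gene 1. All 4 were taken from the deposited table as the transcripts that carry their gene name and either match a reference transcript (class code =) or share a splice junction with one (class code j). They were 4 of the 56537 gene names in the table, and held 214 of its 286562 transcripts of these class codes, of which 172 were of class = and 42 of class j. The samples were HCT116 cells, a colorectal cancer cell line, kept at 21% oxygen (0 h) or placed in 1% oxygen for 1, 2 or 24 h, without any genetic change or added agent. Polyadenylated RNA was sequenced strand by strand from 3 libraries at each of the 4 times, 12 in all, described by the study as biological replicates. Nothing in the sources says that 24 h and 0 h cells had spent equal times in culture, so at 24 h low oxygen and culture time cannot be told apart.

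NDRG proteins have the fold of the alpha/beta hydrolases but are not known to act as enzymes. NDRG1 is a widely used marker of low oxygen: the hypoxia-inducible factors (HIF) raise its transcription, the MYC proteins lower it, the kinases SGK1 and GSK3 phosphorylate the protein, and it takes part in the traffic of E-cadherin and other membrane proteins. NDRG2 is best known from brain and muscle and is often silenced in tumours, NDRG3 is a protein that the oxygen sensor PHD2 (EGLN1) marks for breakdown and that binds lactate, and NDRG4 belongs to heart and nerve cells and is often methylated in colorectal cancer.

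Levels are FPKM, the number of sequenced fragments scaled to the length of a transcript and to the fragments mapped in its library. They were summed per gene and are given as mean ± SD of 3 libraries. Changes are limma log2 fold changes of FPKM + 0.5, which understates the change of low genes, with p-values adjusted over the 16680 gene names above 0.5 FPKM in at least 3 libraries. A change was called at an adjusted p under 0.01 and an absolute log2 fold change above 1. No read counts were analysed, so the FPKM carry no counting intervals and their error is the spread between libraries. Pearson's r between libraries of a time point was 0.965 to 0.988 over genes, which are not independent replicates. EPCAM, KRT8 and KRT18, markers of epithelial cells, stood at 280 ± 39, 988 ± 190 and 603 ± 140 FPKM at 0 h. CDX2, a factor of intestinal epithelium, was at 8.05 ± 1.2 FPKM, and VIL1, also an epithelial marker, was near 0. CDH1, another epithelial marker, was called higher at 24 h, with a log2 fold change of 1.76. EPCAM, KRT8, KRT18 and CDX2 were not called (-0.28, -0.16, -0.20 and -0.39). The blood marker PTPRC, the endothelial marker PECAM1 and the fibroblast marker COL1A2 were listed at 0 at 0 h and 24 h, while COL1A1 was called higher at 24 h (1.92 ± 0.21 to 6.87 ± 1.7 FPKM); its part in the results was not tested. In bulk RNA, another make-up of the culture and another amount of RNA per cell cannot be told apart.

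At normal oxygen the 4 genes had mean levels of 2.12 to 24.1 FPKM, and after 24 h in 1% oxygen NDRG1 stood far above the other three. NDRG1 rose about 41-fold, from 24.1 ± 6.18 to 984 ± 153 FPKM (n = 3 each), and was the only member called at any time. NDRG2, NDRG3 and NDRG4 moved by less than the fold threshold in all comparisons as deposited, with log2 fold changes of 0.26 to 0.37 at 24 h that did not pass the test. In TPM, a rescaling in which all genes shift and the median of all genes at 2 h was -0.88, NDRG2 stood at -1.1 at 2 h (SE 0.39, limma adjusted p = 0.025), which was not called. At 24 h 3048 genes (18.3% of those tested) were called, 1462 of them higher, so 1 called gene of 4 is a share close to that of genes at large. The size of the NDRG1 change was not: by log2 fold change it was number 6 of 16680.

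**Figure D1:**
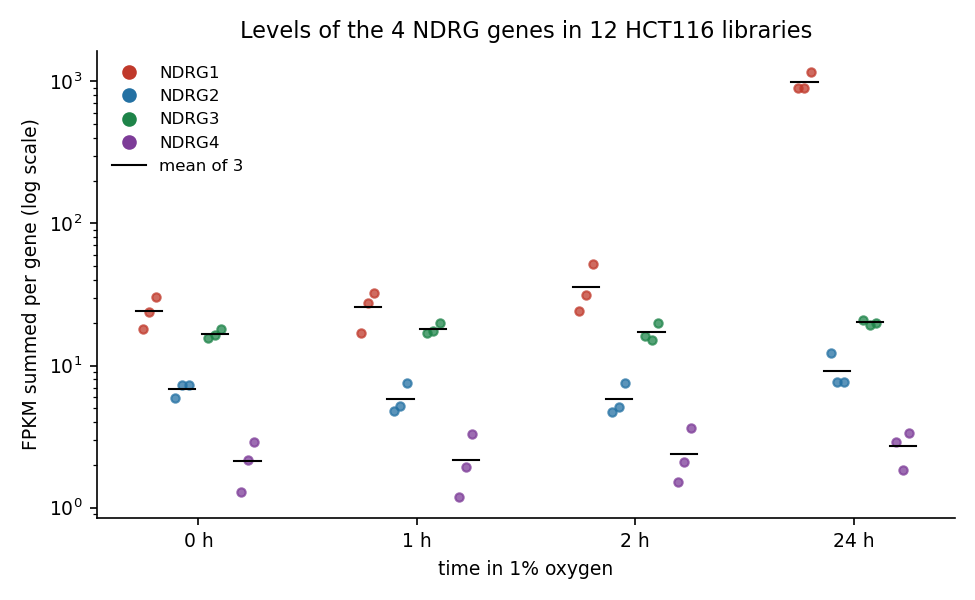
FPKM of NDRG1, NDRG2, NDRG3 and NDRG4 (log axis) in each of the 12 libraries by time in 1% oxygen; points are libraries and lines are means of 3. The NDRG1 libraries at 24 h lie between 889.6 and 1161 FPKM, above the highest library of any other member or time, 52.0 FPKM.

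NDRG1 (ENSG00000104419; GRCh37 chromosome 8, 134249418 to 134314265, minus strand) had 18.1, 23.6 and 30.5 FPKM in the 0 h libraries. In the 1 h libraries it had 17.0, 27.3 and 32.6 FPKM, and at 2 h 24.0, 31.1 and 52.0 FPKM. The ranges of these 3 times overlapped, and the library numbered 3 was the highest at each of them. At 24 h the libraries stood at 889.6, 901 and 1161 FPKM, all above every earlier library. In the order of all tested genes by mean FPKM, NDRG1 went from place 4519 at 0 h to place 127 at 24 h. The log2 fold change was 5.34 (SE 0.29, limma adjusted p = 1.3e-07). Leaving out any 1 library kept it between 5.16 and 5.53, and the call held in each case.

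Of the shorter exposures, 1 h left NDRG1 where it was within error as deposited, with a log2 fold change of 0.07 (SE 0.29, limma adjusted p = 0.997). In TPM, where the median of all genes moved to -0.53, the 1 h value was -0.54. At 2 h the mean was 1.48 times that at 0 h, and the log2 fold change of 0.52 (SE 0.29) was not called (limma adjusted p = 0.41). Libraries with the same replicate number tended to deviate together at 0 h and 2 h, and each 2 h library exceeded the 0 h library of its number, by 1.32 to 1.71 times. With the replicate number as a block the SE was 0.13 and the adjusted p 0.076, still not called. Rescaled to TPM, where the median of all genes moved to -0.88, the 2 h value for NDRG1 became -0.54. Few genes were called so early as deposited, 1 gene at 1 h (0.006%) and 3 at 2 h (0.018%), beside 31 and 390 in TPM, while 769 and 2547 had an unadjusted p under 0.05. These genes, listed because of their values, were RNVU1-16, a U1 small nuclear RNA copy, at 1 h, and MAFF, PIM1 and ERRFI1 at 2 h.

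The difference between the long and the short exposure was itself tested. Between 2 h and 24 h NDRG1 rose by a log2 fold change of 4.83 (SE 0.29, limma adjusted p = 3.4e-07), where 2456 genes (14.7%) were called. Against this, NDRG2 had 0.61 (adjusted p = 0.038), NDRG3 0.23 (adjusted p = 0.12) and NDRG4 0.18 (adjusted p = 0.70) by limma, none of them past the thresholds.

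**Figure D2:**
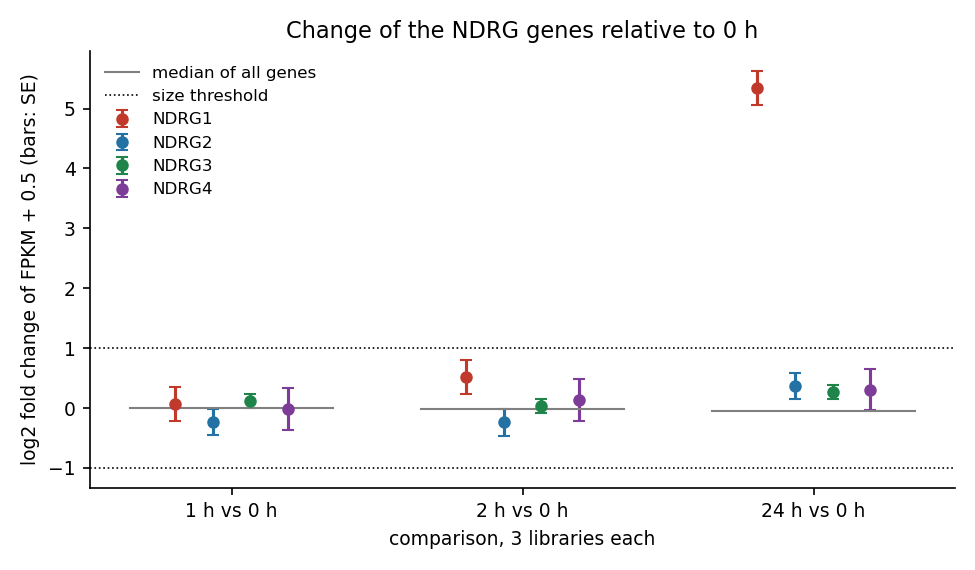
Log2 fold change of FPKM + 0.5 for the 4 members at 1, 2 and 24 h against 0 h (points, with SE as bars), beside the median of all tested genes (grey line) and the size threshold of 1 in either direction (dotted). NDRG1 at 24 h, at 5.34, is the only point beyond the dotted lines, and the other 11 lie between -0.24 and 0.52 on the scale as deposited; rescaled to TPM, NDRG2, NDRG3 and NDRG4 at 24 h turn negative and NDRG2 at 2 h lies at -1.1.

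NDRG3 (ENSG00000101079) came next to NDRG1 in level. It had 15.5, 16.4 and 18.1 FPKM at 0 h, 16.9, 17.5 and 19.9 at 1 h, and 16.2, 15.2 and 19.9 at 2 h. At 24 h it had 21.0, 19.2 and 19.99 FPKM, each above the highest 0 h library but by 1.10 to 1.35 times between libraries of the same number. The log2 fold change at 24 h was 0.26 (SE 0.12) and was not called (limma adjusted p = 0.074).

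NDRG2 (ENSG00000165795; chromosome 14, 21484922 to 21539031, minus strand) had 5.91, 7.32 and 7.27 FPKM at 0 h. It had 4.76, 5.21 and 7.48 FPKM at 1 h and 4.74, 5.14 and 7.49 at 2 h, ranges that overlapped with 0 h. At 24 h one library stood at 12.2 FPKM and the other two at 7.597 and 7.614, again above each 0 h library. The log2 fold change at 24 h was 0.37 (SE 0.22, limma adjusted p = 0.18). Without 24 h replicate 1, the high library, it was 0.15 (adjusted p = 0.58), and summed over the 4 transcripts past the filter alone it was -0.51 (adjusted p = 0.12).

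NDRG4 (ENSG00000103034; chromosome 16, 58496750 to 58547532, plus strand) was the least abundant member. It had 1.28, 2.17 and 2.90 FPKM at 0 h, 1.197, 1.94 and 3.31 at 1 h, and 1.51, 2.08 and 3.62 at 2 h. At 24 h it had 2.89, 1.85 and 3.37 FPKM, a range that overlapped with 0 h. The log2 fold change at 24 h was 0.31 (SE 0.35, limma adjusted p = 0.48), and without 0 h replicate 1 it was 0.06 (adjusted p = 0.91).

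NDRG1, NDRG2 and NDRG3, but not NDRG4, had all 24 h libraries above all 0 h libraries. Among the tested genes 4606 (27.6%) did so. For NDRG2, NDRG3 and NDRG4 the 24 h change was positive as deposited, with a median of all genes of -0.05. Rescaled to TPM it was -0.39, -0.56 and -0.31, with a median of -0.675. On both scales the 3 genes lay above the median. A median-of-ratios scaling between libraries, with factors of 0.967 to 1.02, did not turn these signs. In TPM the values of all genes fall with the share of FPKM on transcripts under 300 bases, 57.0% to 87.6% of a library. In the ratio of NDRG1 to another member a common scaling factor nearly cancels. Its log2 ratio to NDRG2 went from 1.72 at 0 h to 6.70 at 24 h, a difference of 4.98. The differences were 5.08 for the ratio to NDRG3 and 5.03 for that to NDRG4. Each of these 3 comparisons had p = 0.1 by a two-sided exact permutation test, also after adjustment over the 3, which is the smallest p that 3 against 3 libraries allow.

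The order of the levels was NDRG1, NDRG3, NDRG2, NDRG4 at all 4 times. NDRG1 and NDRG3 overlapped in range at 0 h and 1 h and were apart at 2 h and 24 h, whereas every other pair of neighbours was apart at each time. As a share of the summed FPKM of the family, NDRG1 held 48.0% ± 3.74 before hypoxia, 48.9% ± 5.46 after 1 h, 57.5% ± 5.48 after 2 h and 96.8% ± 0.66 after 24 h (SD, n = 3). NDRG3 went from 34.0% ± 3.67 to 2.01% ± 0.30 between 0 h and 24 h, with its own level at 16.7 and 20.1 FPKM as deposited.

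Of the 214 transcripts of the family, 118 were above 0 in at least 1 library and 21 had more than 0.5 FPKM in at least 3 libraries. These 21 were 11 of 42 transcripts of NDRG1, 4 of 103 of NDRG2, 3 of 9 of NDRG3 and 3 of 60 of NDRG4. For NDRG2 and NDRG4, few of the many listed models were thus measurable in HCT116. Transcript FPKM are estimates that divide shared reads between overlapping models, and low ones vary widely between libraries.

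One coding transcript made up most of NDRG1 at all times. ENST00000323851 (GRCh37 chromosome 8, 134249418 to 134309495, 16 exons, 1182 coding bases) had 11.3, 19.8 and 25.7 FPKM at 0 h and 740, 691 and 873 FPKM at 24 h. All 24 h libraries were above all 0 h libraries, and the log2 fold change was 5.37 (SE 0.32, limma adjusted p = 2.9e-06). Its share of the gene was 76.8% ± 12.5 before hypoxia, 73.1% ± 3.74 after 1 h, 73.6% ± 9.92 after 2 h and 78.4% ± 4.23 after 24 h (SD, n = 3). Its usage, the log2 ratio to the rest of the gene, changed by 0.13 (SE 0.45, limma adjusted p = 0.89).

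Of the other NDRG1 transcripts tested, 5 passed the filter with the libraries before 24 h alone, and 5 passed it through the 24 h libraries, where they are high. The latter, ENST00000519278, ENST00000522476, ENST00000523642, ENST00000518480 and ENST00000521544, were thus bound to differ and are described without any test. With the main transcript, 6 NDRG1 transcripts passed without the 24 h libraries, and 4 of these were called at 24 h, all higher. Among all genes 7148 of 62162 transcripts (11.5%) were called in either direction. ENST00000518010, a 581-base model of the 5' part of the gene with no coding region defined, had 0, 1.06 and 2.15 FPKM at 0 h and 81.4, 54.3 and 129.8 at 24 h (log2 fold change 6.04, SE 0.57, limma adjusted p = 4.2e-05). ENST00000354944, which was not matched to the annotation used here, had 0.0003, 0.996 and 1.14 FPKM at 0 h and 37.9, 52.8 and 45.0 at 24 h (5.40, SE 0.57, limma adjusted p = 7.3e-05). In both, the 24 h libraries were far above those at 0 h. They held 8.79% ± 2.60 and 4.67% ± 1.05 of the gene at 24 h.

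Of the retained-intron models of the 3' part of NDRG1, ENST00000521438 rose from 0.179 ± 0.078 to 8.58 ± 2.98 FPKM (log2 fold change 3.69, SE 0.40, limma adjusted p = 8.9e-05). ENST00000519278 went from 0.06 ± 0.057 to 8.74 ± 2.94 FPKM, a model that passed the filter through the 24 h libraries. Both were already above every 0 h library at 2 h, ENST00000521438 with 0.566, 0.545 and 2.51 FPKM and ENST00000519278 with 0.414, 0.257 and 2.60. All 0 h and 1 h libraries of ENST00000521438 were under 0.5 FPKM. Before 24 h it thus passed the filter only through the 2 h libraries, which fixed their place above 0 h. The 2 h change of ENST00000521438 was 1.15 (SE 0.40, limma adjusted p = 0.44) and was not called, and for the same reason is no separate test. The model ENST00000523642, listed at 0 in all 0 h and 1 h libraries, had 0.057, 0.12 and 0.401 FPKM at 2 h and 1.18, 1.81 and 2.93 at 24 h. ENST00000521026 had 1.93, 65.1 and 66.5 FPKM at 24 h, with 24 h replicate 1 within the range of the 0 h libraries, and was not called (4.35, SE 1.17, limma adjusted p = 0.017). Without that library it was called (5.94, limma adjusted p = 0.0007). The 9 retained-intron models together held 8.91% ± 11.6 of the gene at 0 h and 6.48% ± 3.97 at 24 h, and the 17 coding models 84.0% ± 5.36 and 79.7% ± 4.21 (SD, n = 3), ranges that overlapped.

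Among the less abundant coding models, ENST00000522476 went from 0.023 ± 0.041 to 3.73 ± 0.695 FPKM and ENST00000521544 from 0.094 ± 0.116 to 1.32 ± 0.396 FPKM (SD, n = 3), with all 24 h libraries above all 0 h libraries in both. These models passed the filter only through the 24 h libraries, so the filter fixed this separation. ENST00000537882 had 3.25, 8.28 and 0 FPKM at 24 h and was not called (0.95, SE 0.92, limma adjusted p = 0.49). Its value ran from 0.053 without 24 h replicate 2 to 2.12 without 24 h replicate 3 (adjusted p = 0.98 and 0.052). ENST00000518480 had 0.264, 0 and 0 FPKM at 0 h and 1.67, 1.30 and 5.88 at 24 h.

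Usage was read for the 6 NDRG1 transcripts that passed the filter before 24 h. Of these, 2 were called at an adjusted p under 0.05, both lower, where 6109 of 57084 transcripts (10.7%) were called among all genes. ENST00000521438 changed by -1.65 (SE 0.36, limma adjusted p = 0.016), and the pseudocount of 0.5 is large beside its 0 h level. With a pseudocount of 0.1 it was at -0.43 and not called (adjusted p = 0.67), nor was it called without 0 h replicate 1 (-1.54, adjusted p = 0.057) or 0 h replicate 2 (-1.56, adjusted p = 0.054). ENST00000537882 changed by -4.46 (SE 1.06, limma adjusted p = 0.023) and kept a value of -3.93 to -4.73 in 5 other settings, but the call was lost with a pseudocount of 0.1 (-4.73, SE 1.68, adjusted p = 0.12) and without 0 h replicate 1 (-3.75, adjusted p = 0.084). In percent of the gene, ENST00000521438 was at 0.748% ± 0.311 at 0 h and 0.86% ± 0.21 at 24 h, with overlapping ranges, and ENST00000537882 at 4.90% ± 5.62 and 0.428% ± 0.463 (SD, n = 3), with all 24 h libraries below all 0 h libraries. The shares of the 5 transcripts described without a test had means of 0 to 0.485% at 0 h and of 0.139% to 0.873% at 24 h.

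**Figure D3:**
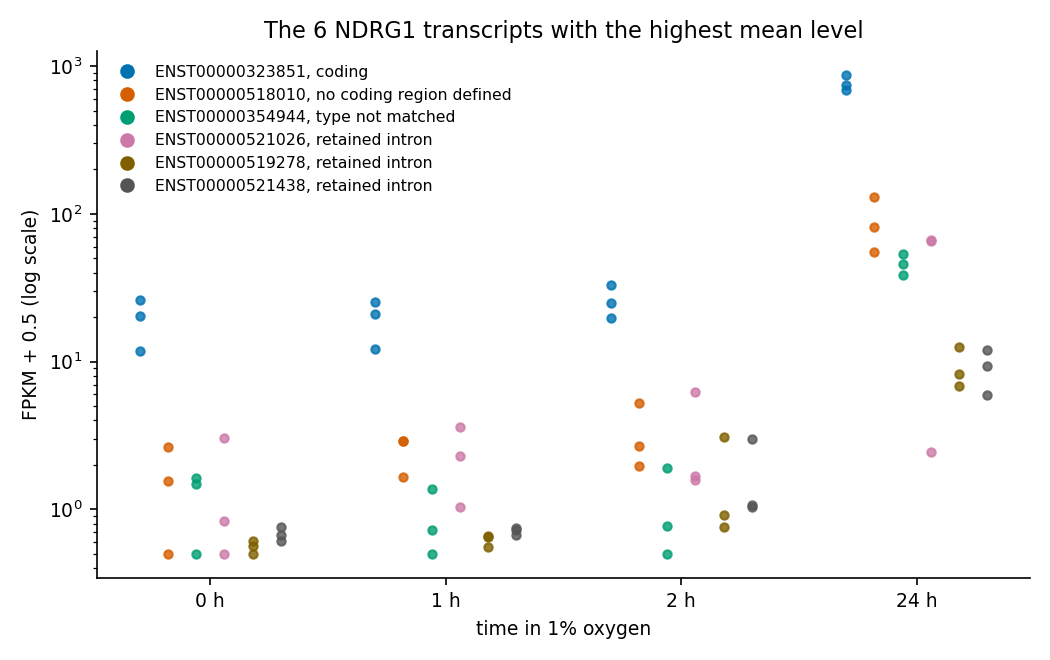
FPKM + 0.5 (log axis) of the 6 NDRG1 transcripts with the highest mean in each of the 12 libraries, by time in 1% oxygen; each point is a library. ENST00000323851 is the highest transcript in every library, and 1 of the 3 libraries of ENST00000521026 stays at 1.93 FPKM at 24 h while the other two reach 65.1 and 66.5.

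Transcripts were also grouped by the start site (tss_id) that the table assigns to them, 66 groups for the family, of which 12 passed the filter on low values. The group that starts at 134308933 to 134309499 on chromosome 8, the 11 transcripts of the main NDRG1 promoter, held 89.5% ± 12.4 of the gene before hypoxia and 93.1% ± 4.1 after 24 h (SD, n = 3). Its level rose by a log2 fold change of 5.41 (SE 0.32, limma adjusted p = 1.4e-06). Of 6 tested NDRG1 groups, 3 passed the filter with the libraries before 24 h alone, and 2 of these were called, both higher, where 5219 of 38233 groups (13.7%) were called in either direction among all genes. The other 3 passed it through the 24 h libraries, and their calls are not counted. The usage of the main group changed by 0.66 (SE 0.85, limma adjusted p = 0.69). Of the other 2 groups that passed before 24 h, 1 was called by usage, where 2913 of 31006 groups (9.39%) were called among all genes. It changed by -1.65 (SE 0.35, limma adjusted p = 0.015) and consists of ENST00000521438 alone, so that it repeats the value of that transcript. A single start-site group thus carried most of NDRG1 at both times.

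NDRG2 was divided between several models. The main start-site group, at 21493173 to 21493299 on chromosome 14, held 63.3% ± 8.64 of the gene before hypoxia, 83.5% ± 2.1 after 1 h, 81.0% ± 1.23 after 2 h and 53.4% ± 7.20 after 24 h (SD, n = 3). The 1 h and 2 h libraries were above those of both other times. The usage change at 24 h against 0 h was -0.52 (SE 0.27, limma adjusted p = 0.26), and against 2 h it was -1.51 (SE 0.27, limma adjusted p = 0.01), which was called, as were 6.55% of start-site groups among all genes. This call held in 5 other settings, from -0.966 in TPM to -1.8 with a pseudocount of 0.1, and without any 1 library (-1.71 to -1.35). The level of the group was 4.68 ± 1.13 FPKM at 2 h and 4.85 ± 1.35 at 24 h. None of the 4 tested NDRG2 transcripts was called by level or usage at 24 h, and 2 of the 4 passed the filter only with the 24 h libraries. ENST00000397853, the full-length coding model with 1113 coding bases, had 2.19, 0.016 and 1.16 FPKM at 0 h and 0.196, 0.361 and 0.40 at 24 h (log2 fold change -0.70, SE 0.48, limma adjusted p = 0.32). Its value was -0.19 without 0 h replicate 1 and -1.38 without 0 h replicate 2, the low library (adjusted p = 0.81 and 0.011), and was called in neither case. The class j model whose nearest reference is the coding ENST00000298687 had 0.985, 1.61 and 2.51 FPKM at 0 h and 1.83, 0.046 and 0.014 at 24 h (-1.28, SE 0.69, limma adjusted p = 0.20; -2.0 to -0.905 without 1 library, not called). In both models the ranges of the 2 times overlapped.

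The NDRG2 models were also summed by annotated type. The 16 retained-intron models had 0.951, 1.38 and 1.57 FPKM in sum at 0 h and 3.64, 2.39 and 2.80 at 24 h, so that the ranges were apart. Their share of the gene was 18.9% ± 2.75 before hypoxia, 11.8% ± 6.91 after 1 h, 15.8% ± 6.16 after 2 h and 32.7% ± 3.64 after 24 h (SD, n = 3). The 55 coding models had 3.45 ± 0.455 FPKM at 0 h and 4.10 ± 0.511 at 24 h, with overlapping ranges. None of the 16 retained-intron models alone passed the filter on low values, so their sum is made of low estimates. The share of all genes whose retained-intron sums are apart was not computed. This grouping by annotated type was described without a test.

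NDRG4 transcripts were low throughout. The highest by mean was the retained-intron model ENST00000566265, with 0.182, 0.61 and 1.09 FPKM at 0 h and 1.26, 0.172 and 0.914 at 24 h (log2 fold change 0.16, SE 0.46, limma adjusted p = 0.83). The start-site group at 58533951 to 58534050 on chromosome 16 held 69.3% ± 11.3 of the gene at 0 h and 37.9% ± 22.4 at 24 h (usage change -1.32, SE 0.52, limma adjusted p = 0.14). The 24 h shares were 12.2%, 53.4% and 48.1%, and without 24 h replicate 1, the low library, the usage change was -0.70 (adjusted p = 0.36). A group starting at 58529360 had under 0.001 FPKM in each 0 h library and 0.858, 0.316 and 0 FPKM at 24 h. None of the 3 NDRG4 transcripts tested was called, and 2 of the 3 passed the filter only with the 24 h libraries.

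NDRG3 (GRCh37 chromosome 20, 35280169 to 35374493, minus strand) has transcripts that hold or skip a short exon at chr20:35335375-35335410. The exon has 36 bases, that is 12 whole codons, so that ENST00000349004, which holds it, has 1125 coding bases and ENST00000359675, which skips it, has 1089. The exon is shown because the one transcript outside NDRG1 whose usage was called at 24 h against 0 h holds it. In the sequences, read from GRCh37 on the minus strand, capitals mark bases of the exon. The first line is the exon with 20 bases of intron on each side, the others are 15 bases on each side of the splice junctions.
Exon with flanks, chr20:35335355-35335430: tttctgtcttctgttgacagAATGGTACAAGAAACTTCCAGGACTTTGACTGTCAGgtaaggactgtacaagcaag
Junction into the exon, ENST00000349004: cttctaaatgataagAATGGTACAAGAAAC
Junction out of the exon, ENST00000349004: GACTTTGACTGTCAGgaacatgatatagaa
Junction that skips the exon, ENST00000359675: cttctaaatgataaggaacatgatatagaa

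ENST00000349004 carried most of NDRG3. It had 11.2, 14.3 and 15.1 FPKM at 0 h, 14.3, 16.4 and 18.1 at 1 h, 14.9, 14.4 and 19.4 at 2 h, and 19.9, 17.5 and 19.1 at 24 h. All 24 h libraries were above all 0 h libraries, but the log2 fold change of 0.47 (SE 0.16) was not called (limma adjusted p = 0.051). In TPM this level change was -0.36. Of the gene it held 81.1% ± 7.99 before hypoxia and 93.7% ± 2.61 after 24 h (SD, n = 3), and its usage rose by 1.5 (SE 0.42, limma adjusted p = 0.044). This call is close to the threshold: it was lost with a pseudocount of 0.1 (1.73, adjusted p = 0.072), in TPM (0.92, adjusted p = 0.07), and without 0 h replicate 1 (1.14, 0.15), 0 h replicate 3 (1.58, 0.083), 24 h replicate 1 (1.43, 0.10), 24 h replicate 2 (1.76, 0.051) or 24 h replicate 3 (1.32, 0.12).

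ENST00000359675, the transcript without the exon, had 2.43, 1.10 and 0.651 FPKM at 0 h and 0.858, 0.53 and 1.004 at 1 h. At 2 h it had 0.132, 0.144 and 0 FPKM and at 24 h 0.248, 0.455 and 0.451, below each 0 h library at both times. Its log2 fold change at 24 h was -1.0 (SE 0.34) and not called (limma adjusted p = 0.048), and without 0 h replicate 1 it was -0.63 (adjusted p = 0.17). At 2 h it was -1.58 (SE 0.34, limma adjusted p = 0.23), also not called. Its usage change was -1.73 at 2 h (limma adjusted p = 0.40) and -1.36 at 24 h (limma adjusted p = 0.06). The latter was called with a pseudocount of 1 (-1.08, adjusted p = 0.045) and without 0 h replicate 3 (-1.76, adjusted p = 0.03), and was -0.89 without 0 h replicate 1 (adjusted p = 0.18). Over all 5 other settings the 24 h usage change ran from -1.85 to -0.53 (limma adjusted p = 0.045 to 0.37). The third transcript tested, ENST00000373773, begins at 35350190, inside the gene, and holds the short exon. It had 1.15, 0.914 and 1.92 FPKM at 0 h and 0, 1.32 and 0 at 24 h (-1.21, SE 0.57, limma adjusted p = 0.14), and without 1 library each the value ran from -1.83 to -0.902, not called.

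Over the NDRG3 transcripts annotated to hold or skip the exon, 83.8%, 93.2% and 96.4% of the FPKM held it at 0 h. The shares were 94.9%, 96.9% and 94.9% at 1 h, 99.2%, 99.0% and 100% at 2 h, and 98.8%, 97.6% and 97.7% at 24 h. The 2 h and 24 h libraries lay above the 0 h libraries, with p = 0.1 for each by a two-sided exact permutation test, the smallest value possible, and p = 0.3 for 1 h. Adjusted over these 3 comparisons the exact p-values were 0.15, 0.15 and 0.3. The mean at 24 h exceeded that at 0 h by 6.91 percentage points, and by 3.25 without 0 h replicate 1. This share was computed after the transcript values had been seen. The exon was chosen because the usage of ENST00000349004, which makes up most of the share, was called at 24 h. The exact test at 24 h therefore repeats the values that led to the choice and is no separate support. The test at 2 h shares its 0 h libraries.

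**Figure D4:**
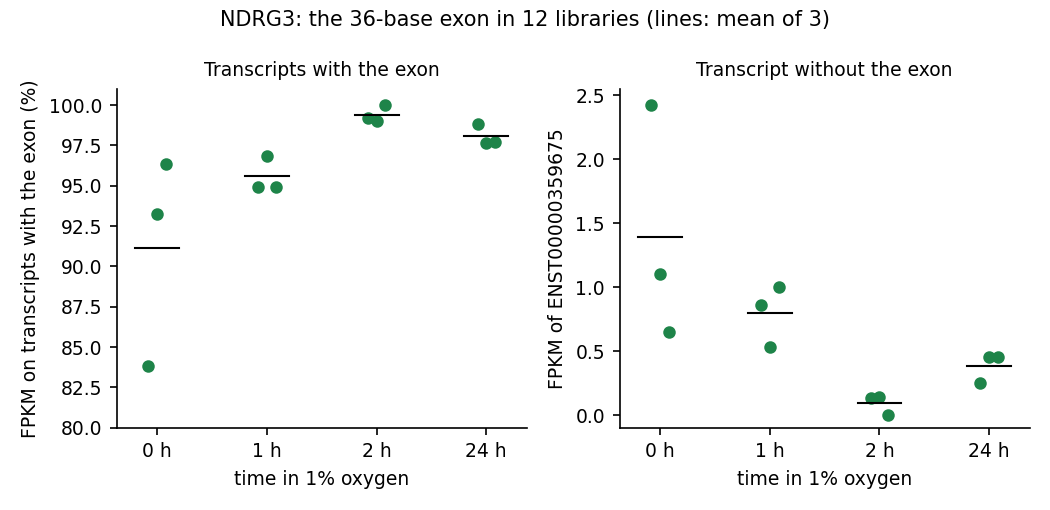
Left, FPKM of annotated NDRG3 transcripts that hold the 36-base exon, in percent of those that hold or skip it, on an axis that starts at 80%. Right, FPKM of ENST00000359675, which skips it. Points are the 12 libraries by time in 1% oxygen and lines the means of 3; at 2 h and 24 h every library has a larger share with the exon than the highest 0 h library, 96.4%.

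The 250 bases upstream of the start of 1 transcript per gene, the class = model with the highest mean, were searched for ACGTG and GCGTG on both strands, the core letters of the HIF response element, where ACGTG is also part of the E-box CACGTG. The windows of ENST00000323851 (NDRG1) and ENST00000397853 (NDRG2) had 1 match each, and that of ENST00000349004 (NDRG3) had 0. The NDRG4 window, also with 0, is that of the retained-intron model ENST00000566265 and does not lie at the start-site group of 58533951 to 58534050. Of the windows of tested genes that could be placed, 8327 of 16200 (51.4%) held at least 1 match. The match is a description of the letters and not a binding site. The NDRG1 window was 78.0% G and C, against a median of 62.4% for all windows.

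Genes known to regulate the family were counted next. Of 15 tested regulators (17 listed), 3 were called higher at 24 h and 2 lower, beside 18.3% of all genes called in either direction. The oxygen sensor EGLN3 went from 1.93 ± 0.36 to 26.7 ± 6.9 FPKM (log2 fold change 3.46), EGLN1 rose by 1.92 and EPAS1, which encodes HIF-2 alpha, by 2.06. HIF1A fell from 61.3 ± 3.1 to 30.5 ± 4.6 FPKM (-1.0) and EGLN2 by 1.02. MYC, the repressor that gave the family its name through its relative MYCN, stood at 162 ± 20 and 146 ± 29 FPKM (-0.16, SE 0.15, limma adjusted p = 0.40), and MYCN was listed at 0. HIF3A and MYCN were below the filter. The median of the list was 0.16, beside -0.05 for all genes.

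Among the kinases of NDRG1 and their complexes, 1 of 6 tested (7 listed) was called, close to the 18.3% of all genes: RICTOR, the subunit that defines mTORC2, rose from 2.45 ± 0.084 to 5.60 ± 1.1 FPKM (1.03). SGK1, the kinase best known for NDRG1, was at 1.49 ± 0.26 and 1.74 ± 1.2 FPKM (0.05, SE 0.33, limma adjusted p = 0.92), and GSK3B at 18.9 ± 1.3 and 32.4 ± 4.0 (0.75, not called on size). GSK3A went the other way, at 38.6 ± 1.8 and 29.3 ± 1.4 FPKM (-0.39, not called on size). The list median was -0.11. Among 5 partners, 2 were called higher (18.3% of all genes were called), CDH1, which encodes E-cadherin (7.42 ± 0.73 to 26.3 ± 1.7 FPKM, 1.76), and the metastasis suppressor CD82 (1.23). LRP6, CTNNB1 and RAB4A were not called, with log2 fold changes of 0.27, -0.20 and 0.63.

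Of 12 other genes known to be induced by low oxygen, 11 were tested and all 11 were called higher at 24 h, where 18.3% of all genes were called in either direction, with log2 fold changes of 1.90 for VEGFA to 5.68 for DDIT4 and a median of 3.34. This list was chosen with earlier results of these data known, so its count is not an independent comparison. LOX was listed at 0 at 0 h and 24 h. NDRG1, at 5.34, lay within this range, below DDIT4 and ANKRD37 (5.45) and above BNIP3L (4.09). At 2 h none of the 11 passed the thresholds, although DDIT4 stood at 3.44 (limma adjusted p = 0.082) and ANKRD37 at 2.56 (limma adjusted p = 0.029), beside 0.52 for NDRG1. At 0 h NDRG1 and DDIT4 were at 24.1 and 15.6 FPKM, at 24 h at 984 and 805.

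**Figure D5:**
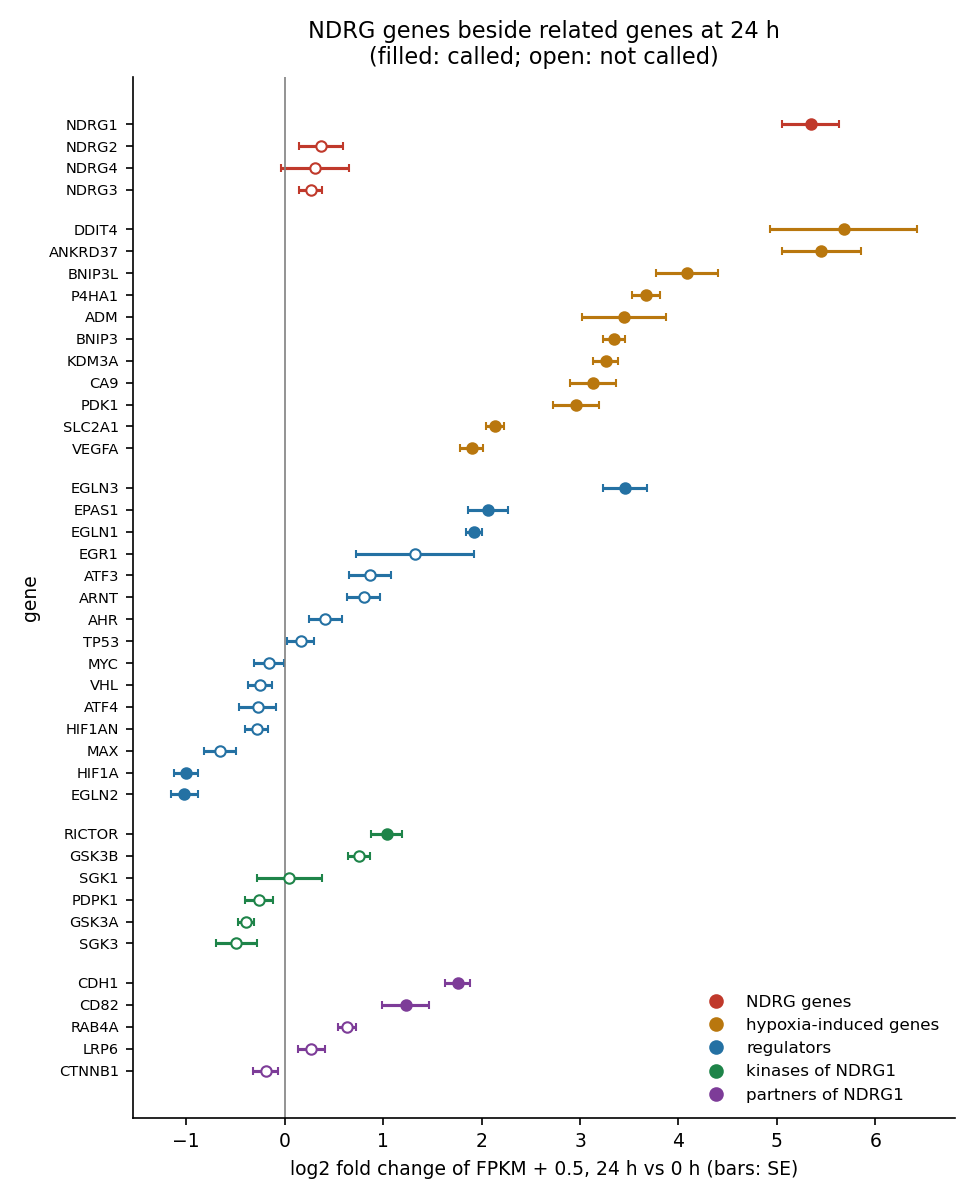
Log2 fold change at 24 h against 0 h for the NDRG genes and for the tested genes of 4 lists (points, with SE as bars; filled points were called). NDRG1 lies with the hypoxia-induced genes, between 1.90 and 5.68, and NDRG2, NDRG3 and NDRG4 lie at 0.26 to 0.37 as deposited and below 0 in TPM. The lists were chosen with earlier results of these data known.

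The genes whose log2 levels followed each member most closely over the 12 libraries were named by Pearson's r, as a description. For NDRG1 they were KDM5C (0.997), PLIN3, MKNK2, PLOD2 and ITGB4 (0.993), with log2 fold changes of 0.82 to 3.74 at 24 h, and 1689 genes had an r above 0.9 with NDRG1, which has 3 libraries far above the other 9. Genes with differences of unlike size reached a like r: PLIN3 had means of 80.9 and 143 FPKM at 0 h and 24 h, and PLOD2 6.997 and 99.4. NDRG2 was followed by DUSP22 (0.965), YIF1B, SEPT5, TMEM191C and PMM1 (0.948), NDRG3 by TRERF1 (0.967), MRAS, CDIP1, SLC25A1 and STK3 (0.933), and NDRG4 by SREBF1 (0.980), SMARCC2, KIF5C, FADS1 and HDAC1 (0.926). Between the members r ran from 0.418 for NDRG1 and NDRG4 to 0.775 for NDRG2 and NDRG3.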

How the data were processed

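RNA was sequenced from HCT116 cells in 12 libraries. Per the paper and the submitters' processing notes, base calls came from CASAVA 1.8.2, reads were aligned to hg19, and Cufflinks assembled transcripts per sample, merged them with Ensembl models and estimated the FPKM that the authors deposited; scaling between libraries was not given in the sources used here. FPKM were used as deposited. They were summed per gene name over class codes = and j, kept above 0.5 FPKM in at least 3 libraries, and tested by limma 3.58.1 (trend) in R 4.3.3 on log2(FPKM + 0.5) over all 12 libraries, adjusted by Benjamini-Hochberg over all features tested. The same was done for 62162 transcripts, 38233 start-site groups and for usage (called at an adjusted p under 0.05). Transcript types, positions and sequences came from GENCODE release 44 lifted to GRCh37 and that genome. Tables and figures used Python 3.11.15, pandas 2.3.3, numpy 2.4.6, scipy 1.17.1 and matplotlib 3.10.9.

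The members and the gene lists were chosen with earlier results of these data known. By rule, transcripts with a mean of at least 1 FPKM at any time (or the highest) were to be named. So were start-site groups with at least 10% of a gene, and the 5 genes with the highest r. Left out were ENST00000522665 and a class j model of NDRG1, with means of 1.14 and 1.07 FPKM at 24 h. Start-site groups left out were those at 21490392 to 21490502 of NDRG2 (8.26% at 0 h, 13.3% at 24 h) and 58540828 to 58540884 of NDRG4 (1.57%, 11.5%). Also left out were those at 35374456 to 35374493 of NDRG3 (92.1%, 97.1%) and at 58543053 of NDRG4, which is ENST00000566265 alone. Some lower transcripts were named after their values were seen. Same-numbered libraries of 0 h and 2 h deviated together over genes (correlations 0.246, 0.129 and 0.362), so the numbers, which come from the labels, were taken as pairs for that comparison. On simulated data for the 24 h comparison, 88.5% of 200 genes changed by 1.5 and 98.5% of those changed by 3 on the log2 scale were recovered among 16680 genes; for usage of 57084 transcripts the shares were 4.5% and 72.5%.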

Additional observations from a re-analysis of the deposited data

Results flagged for a closer look

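The response of NDRG1 to 24 h in 1% oxygen differed from that to 2 h. The 2 changes relative to 0 h, which share the 0 h libraries, were 5.34 and 0.52 on the log2 scale, and the difference of 4.83 was tested directly as 24 h against 2 h (limma adjusted p = 3.4e-07; 2 h 35.7 ± 14.5 and 24 h 984 ± 153 FPKM, n = 3 each). All 3 of the 24 h libraries were above all 2 h libraries. With groups of 3 libraries, single libraries that stand apart were not tested for.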

How the results depend on the processing

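The calls of NDRG1 at 24 h held under all 13 alternative settings and all 6 fits without 1 library, with log2 fold changes of 4.45 to 5.40 and 5.16 to 5.53 against 0 h, and of 4.75 to 4.98 and 4.58 to 5.13 against 2 h. No other member was called under any of these settings or fits. The log2 differences between NDRG1 and the other members at 24 h kept their sign without each library, from 4.75 to 5.26 over the 3 comparisons.

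Signs of uncalled changes turned with the processing. In TPM, where all genes shift, they became -0.54 for NDRG1 and -0.49 for NDRG3 at 1 h, -0.54 for NDRG1, -0.98 for NDRG3 and -0.56 for NDRG4 at 2 h, and -0.39 for NDRG2, -0.56 for NDRG3 and -0.31 for NDRG4 at 24 h. With transcripts past the filter alone, NDRG2 was at 0.072 at 1 h, -0.51 at 24 h and -0.40 for 24 h against 2 h, and NDRG4 at 0.046 at 1 h, -0.16 at 2 h and -0.10 at 24 h. With class code = alone NDRG4 was at -0.00077 for 24 h against 2 h. Without 1 library each, the ranges that crossed 0 were -0.13 to 0.34 for NDRG1 at 1 h, -0.31 to 0.27 for NDRG4 at 1 h, -0.082 to 0.11 for NDRG3 and -0.15 to 0.37 for NDRG4 at 2 h, and -0.056 to 0.46 for NDRG4 between 2 h and 24 h. In TPM the transcripts ENST00000349004 and ENST00000566265 were at -0.36 and -0.14. Without 1 library, ENST00000566265 ran from -0.16 to 0.57, the usage of ENST00000323851 from -0.40 to 0.41 and that of the main NDRG1 start-site group from -0.26 to 1.34. The usage of ENST00000519278, not read in the report, was 0.44 with a pseudocount of 0.1. The cause was not tested.

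The count of genes called at 1 h (1) was 31 in TPM and 0 by limma without a filter, in TPM over transcripts of at least 300 bases, with those transcripts only, with 6 libraries and with the block, and 0 to 1 without 1 library. The count at 2 h (3) was 390 in TPM, 6 with a pseudocount of 0.1, 5 in TPM over transcripts of at least 300 bases, 5 with transcripts past the filter, 7 with transcripts of at least 300 bases, 0 without a filter and with 6 libraries, and 0 to 6 without 1 library. At an unadjusted p under 0.05 the settings with a count of 0 had 656 to 1348 genes at 1 h and 3122 to 3140 at 2 h. At 24 h an adjusted p alone called 6927 genes, and 6097 against 2 h, where TPM called 635; without 1 library the counts were 2686 to 3236 and 2116 to 2742. Usage called 4019 transcripts and 1784 start-site groups with a pseudocount of 0.1, 4519 groups with a pseudocount of 1, and 10785 transcripts and 5677 groups in TPM. Without 1 library it called 3287 to 4972 transcripts and 1490 to 2588 groups, and the level test 4654 to 6203 transcripts. In these fits the reduced group has 2 libraries.

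With the replicate number as a block, 4 genes were called at 2 h and 3106 at 24 h. At 24 h, where same-numbered libraries correlated at -0.001, 0.005 and 0.242, the block moved NDRG3 to an adjusted p of 0.033 without a call and changed no call of a transcript or start-site group whose test is given. No read counts were used, so the limits set by depth were not assessed.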

Other observations

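A transcript on the strand opposite to NDRG4 (class code x, 5839 bases), which entered no sum above, had 0.469, 0.675 and 0.541 FPKM at 0 h and 0.107, 0.095 and 0.246 at 24 h, so that the ranges were apart. At 1 h it had 0.414 ± 0.092 and at 2 h 0.399 ± 0.101 FPKM (SD, n = 3), ranges that overlapped with 0 h. These values are low and were not tested.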
